A study of Homo sapiens with 16 samples.

Results

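The genes described here are 9 that govern where lymphocytes go: the chemokine receptors CCR7, CCR9 and CXCR4, the sphingosine-1-phosphate receptor S1PR1, the transcription factor KLF2, the interleukin-7 receptor chain IL7R, and the integrin chains ITGA4, ITGAL and ITGB7. They were chosen by name, with earlier results of these data known, and all 9 were found among the 57820 genes of the count table. The table came from RNA-seq of 2 established cell lines of T-lineage acute lymphoblastic leukemia (T-ALL), Jurkat and HSB-2, in which USP7, a deubiquitylating enzyme, was reduced by short hairpin RNA (shRNA). Each line gave 4 groups of 2 libraries, 16 libraries in all: wild-type, scrambled control, USP7 shRNA-4057 and USP7 shRNA-4058. The study asked how partial loss of USP7 alters transcription in T-ALL with active TAL1, and all groups of both lines carry the genotype label TAL1+. The hairpins were delivered by lentivirus, and per the methods the transduced cells were sorted for GFP or selected with puromycin, whereas the labels of the wild-type cells name no construct. Each disease model is therefore 1 cell line, and the labels do not say whether the 2 libraries of a group were separate transductions. P-values measure the spread between these libraries, which may be technical.

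Lymphocytes leave the blood and move through tissue by steps that use different receptors. Chemokine receptors read local chemokines and switch integrins to a binding state, integrins hold the cell to vessel walls and stroma, and S1PR1 draws the cell out of thymus and lymph node along a gradient of sphingosine-1-phosphate. KLF2 is known in T cells as an activator of S1PR1, and it marks resting cells and thymocytes that are ready to leave the thymus.

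Total counts per library were between 86.9 and 110.3 M (mega) in Jurkat and between 76.6 and 235.5 M in HSB-2. A library with 0 counts of a gene thus allowed at most 0.0127 to 0.0392 CPM (counts per M of the library total), here without TMM scaling. All other CPM values are scaled by TMM. USP7 itself was at 385 ± 2.21 CPM (SD, n = 2) in scrambled Jurkat cells, 143 ± 3.79 with shRNA-4057 and 243 ± 1.46 with shRNA-4058. In HSB-2 it was at 224 ± 5.02 CPM in scrambled cells, 146 ± 3.68 with shRNA-4057 and 159 ± 3.95 with shRNA-4058. All 9 T-lineage markers examined (CD3D, CD3E, CD3G, CD247, CD2, CD5, CD7, LCK and PTPRC) were at 1 CPM or more in both lines. None of the myeloid, erythroid or epithelial markers reached that level in either line. Of 6 B-lineage markers, CD79A reached it in Jurkat, with a mean of 35.5 CPM, and PAX5 in HSB-2, with 2.06 CPM, and the summed level of the 6 was 22.1 to 64.9 CPM in Jurkat libraries and 1.17 to 4.63 in HSB-2. In such bulk libraries fewer cells that use a gene and less of its RNA per cell cannot be told apart.

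The first comparison asked which of the 9 genes differed between cells with a USP7 hairpin and scrambled cells. CCR7, S1PR1, KLF2 and ITGB7 rose in both lines, and CXCR4 and ITGA4 fell in both. IL7R fell in Jurkat and was next to absent in HSB-2, and CCR9, which gave few counts, rose in HSB-2. ITGAL, the most abundant of the 9 per kilobase of exon in HSB-2, passed the test in neither line.

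In this comparison both hairpins of a line formed a group of 4 libraries against 2 scrambled libraries, so that hairpins that differ widen the error. A gene was called when its adjusted p was under 0.05 in edgeR's quasi-likelihood test with Benjamini-Hochberg adjustment over all genes tested, the source of every adjusted p below. In Jurkat 7 of the 9 genes were called, 4 higher and 3 lower, where 28% of all 21288 genes tested were called, 12.4% of those tested higher and 15.7% lower. In HSB-2 8 of the 9 were tested, IL7R having too few counts, and 7 were called, 5 higher and 2 lower, where 38.1% of all genes were called, 20.3% higher and 17.8% lower. Over all genes, higher calls made up 44.1% of the calls in Jurkat, and 54.2% when an offset for GC content and gene length was added to the fit. In HSB-2 they made up 53.2%, and 45.5% with that offset. Without Jurkat scrambled replicate 1 or 2, 3 of the 9 genes were called in Jurkat, and 1873 or 1434 of all genes. Without HSB-2 scrambled replicate 1 or 2, 7 or 6 members were called in HSB-2, where 18% or 21.3% of all genes were, 3801 or 4518 in number. With wild-type cells as the control in place of scrambled cells, 3 of the 9 were called in Jurkat, all higher, where 8.41% of all genes were called, 3.1% higher and 5.31% lower. In HSB-2 that control gave 6 called of 8, 5 higher and 1 lower, where 25.1% of all genes were called, 13.3% higher and 11.8% lower.

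**Figure D1:**
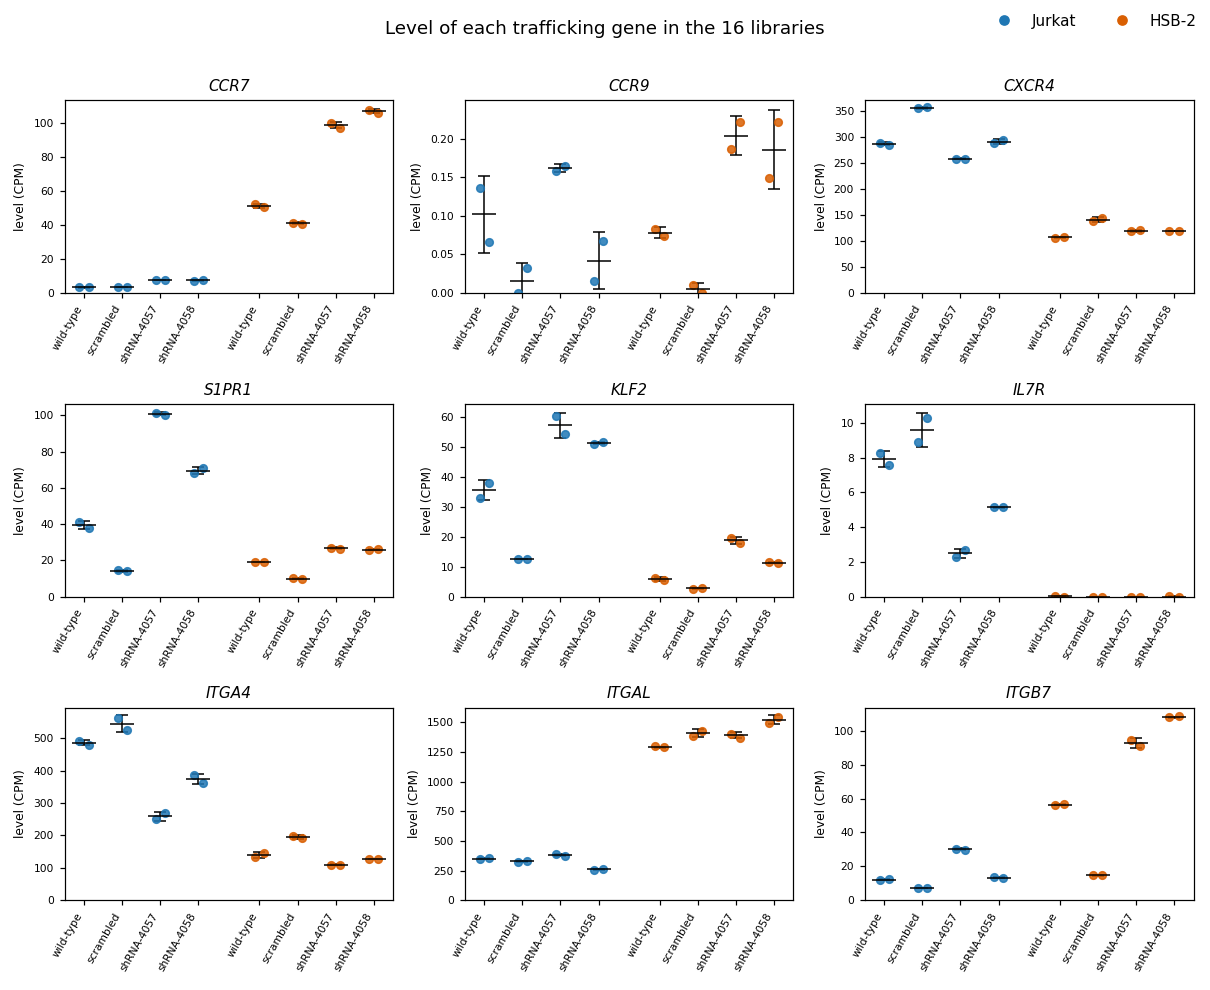
Level of each of the 9 genes in the 16 libraries, in CPM on a linear axis that starts at 0, with 1 panel per gene. Points are libraries, long bars group means and whiskers the SD of 2 libraries (a whisker that would pass below 0 ends at the axis). The wild-type libraries of S1PR1, KLF2 and ITGB7 lie between the scrambled libraries and those of both hairpins in both lines, and HSB-2 libraries of IL7R lie at or near 0.

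CCR7 (ENSG00000126353.3, chr17:38710021-38721724 on the minus strand of GRCh37) encodes the receptor for CCL19 and CCL21, the chemokines that lead naive T cells into lymph nodes. In Jurkat its level was 3.58 and 3.26 CPM in the wild-type libraries, 3.43 and 3.29 in the scrambled ones, 7.51 and 7.46 with shRNA-4057 and 6.99 and 7.66 with shRNA-4058. In HSB-2 the same groups were at 52.1 and 50.4, 41.4 and 40.7, 100.1 and 97.3, and 107 and 106.0 CPM. In each line all 4 hairpin libraries lay above all 4 libraries without a USP7 hairpin. CCR7 rose 2.24-fold in Jurkat (log2 fold change 1.17, SE 0.107, adjusted p = 0.00049) and 2.51-fold in HSB-2 (1.33, SE 0.0608, adjusted p = 1.4e-06). It was the member whose value changed least with the choice of control in Jurkat: against wild-type cells the rise was 2.21-fold (adjusted p = 0.004), and in HSB-2 it was 2.00-fold (adjusted p = 6.1e-05).

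CXCR4 (ENSG00000121966.6, chr2:136871919-136876747, minus strand) encodes the receptor for CXCL12, which holds progenitors in bone marrow and guides early thymocytes. Jurkat wild-type libraries had 289 and 285 CPM, scrambled libraries 355 and 358, shRNA-4057 libraries 258 and 257.0 and shRNA-4058 libraries 288 and 294. In HSB-2 the values were 106 and 108 in wild-type, 138 and 144 in scrambled, 119 and 121 with shRNA-4057 and 120.0 and 119 with shRNA-4058. The scrambled libraries were the highest of their line in both lines. Against them CXCR4 fell 1.28-fold in Jurkat (log2 fold change -0.35, SE 0.073, adjusted p = 0.011) and 1.17-fold in HSB-2 (-0.23, SE 0.049, adjusted p = 0.0056). The direction depended on the control. Against wild-type cells the Jurkat value was -0.04 (SE 0.074, adjusted p = 0.79), and in HSB-2 CXCR4 rose 1.11-fold (0.15, SE 0.0438, adjusted p = 0.035). Without HSB-2 scrambled replicate 2, or without either Jurkat scrambled library, the fall was no longer called in that line, nor was it in Jurkat with the offset for GC content and gene length.

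CCR9 (ENSG00000173585.11, chr3:45925917-45944666, plus strand) encodes the receptor for CCL25, the chemokine of thymus and small intestine. It had few counts in both lines. In Jurkat there were 16 and 6 counts in the wild-type libraries, 0 and 3 in the scrambled ones, 18 and 17 with shRNA-4057 and 2 and 8 with shRNA-4058. The HSB-2 groups had 19 and 7, 2 and 0, 16 and 23, and 31 and 15 counts. Over the hairpin libraries together, 45 counts in Jurkat stood against 3 in scrambled cells, a ratio of 6.07 after scaling (95% exact interval 1.95 to 30.5, counting error only), and the difference was not called (adjusted p = 0.16). In HSB-2 85 counts stood against 2, a ratio of 33.2 (interval 8.9 to 278), and the rise was called (adjusted p = 0.0011). Against the 26 counts of HSB-2 wild-type cells the ratio was 2.27 (interval 1.45 to 3.68) and was not called (adjusted p = 0.054). Against the 22 counts of Jurkat wild-type cells it was 0.917 (interval 0.539 to 1.6). Its exons share 0.5% of their bases with LZTFL1 on the other strand, which was at 18.5 to 31.4 CPM in the group means, and the strand setting of the counting was not given in the sources used here.

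S1PR1 (ENSG00000170989.8, chr1:101702421-101709269, plus strand) encodes the receptor for sphingosine-1-phosphate that T cells need in order to leave thymus and lymph node. In Jurkat it was at 41.1 and 38 CPM in wild-type libraries, 14.5 and 13.9 in scrambled, 101 and 100.2 with shRNA-4057 and 68 and 71 with shRNA-4058. In HSB-2 the same groups were at 18.9 and 18.9, 10.01 and 9.65, 27.1 and 26.4, and 25.7 and 26 CPM. In both lines the 3 kinds of cells kept the same order without overlap, scrambled below wild-type below both hairpins. S1PR1 rose 6.09-fold against scrambled cells in Jurkat (log2 fold change 2.61, SE 0.201, adjusted p = 0.00026) and 2.68-fold in HSB-2 (1.42, SE 0.0656, adjusted p = 1.5e-06). Against wild-type cells the rise was 2.19-fold (adjusted p = 0.015) and 1.39-fold (adjusted p = 0.0011).

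KLF2 (ENSG00000127528.5, chr19:16435637-16439496, plus strand) encodes the Krüppel-like factor of quiescent lymphocytes. Its level in Jurkat was 33.2 and 38 CPM in wild-type, 12.6 and 12.7 in scrambled, 60.3 and 54.3 with shRNA-4057 and 51 and 51.7 with shRNA-4058. In HSB-2 it was 6.25 and 5.41, 2.59 and 2.87, 19.7 and 18, and 11.5 and 11.3 CPM. As for S1PR1, no library of one kind of cells overlapped another kind within a line. KLF2 rose 4.38-fold in Jurkat (log2 fold change 2.13, SE 0.0922, adjusted p = 6e-05) and 5.55-fold in HSB-2 (2.47, SE 0.26, adjusted p = 0.00012). Against wild-type cells it rose 1.56-fold (adjusted p = 0.011) and 2.58-fold (adjusted p = 0.0057).

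IL7R (ENSG00000168685.10, chr5:35852797-35879705, plus strand) encodes the alpha chain of the receptor for interleukin-7, a survival factor of thymocytes and naive T cells. Jurkat wild-type libraries had 8.26 and 7.59 CPM, scrambled 8.91 and 10.3, shRNA-4057 2.29 and 2.68 and shRNA-4058 5.13 and 5.17. All hairpin libraries of Jurkat were below all others, and the 2 hairpins did not overlap. IL7R fell 2.46-fold against scrambled cells (log2 fold change -1.30, SE 0.33, adjusted p = 0.023). Against wild-type cells the fold was 2.03 in the same direction and missed the threshold (adjusted p = 0.1), as it did when either scrambled library was left out. In HSB-2 IL7R gave 6 counts over all 8 libraries, 5 of them in wild-type replicate 1, and 6 libraries were at 0, so no fold is given.

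ITGA4 (ENSG00000115232.9, chr2:182321929-182403667, plus strand) and ITGB7 (ENSG00000139626.11, chr12:53585107-53601066, minus strand) encode the alpha4 and beta7 chains, which together form the gut-homing integrin that binds MADCAM1, while alpha4 with the beta1 chain binds VCAM1. ITGA4 was at 492 and 480 CPM in Jurkat wild-type libraries, 564 and 527 in scrambled, 250 and 269 with shRNA-4057 and 385 and 362 with shRNA-4058. In HSB-2 the values were 133 and 144, 198 and 192, 108 and 110, and 126 and 126.0 CPM. Every hairpin library of ITGA4 lay below every wild-type and scrambled library of its line. ITGA4 fell 1.69-fold in Jurkat (log2 fold change -0.76, SE 0.172, adjusted p = 0.016) and 1.66-fold in HSB-2 (-0.73, SE 0.0733, adjusted p = 9.5e-05). Against wild-type cells the HSB-2 fall was 1.19-fold (adjusted p = 0.049), and the Jurkat value, -0.59 on the log2 scale (SE 0.173), missed the threshold (adjusted p = 0.078). It missed it likewise against scrambled cells when either Jurkat scrambled library was left out. CERKL on the other strand shares 26.4% of the exon bases of ITGA4 and had at most 0.233 CPM in a library.

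ITGB7 moved the other way from its partner chain. In Jurkat it was at 11.8 and 12.5 CPM in wild-type libraries, 7.34 and 7.36 in scrambled, 30.4 and 29.5 with shRNA-4057 and 13.6 and 13.0 with shRNA-4058. In HSB-2 it was at 56.5 and 56.6, 14.6 and 15.0, 94.9 and 90.9, and 108 and 109. The scrambled libraries were again the lowest of their line and the hairpin libraries the highest. ITGB7 rose 2.99-fold in Jurkat (log2 fold change 1.58, SE 0.4, adjusted p = 0.023) and 6.82-fold in HSB-2 (2.77, SE 0.0931, adjusted p = 3.2e-07). Against wild-type cells the HSB-2 rise was 1.78-fold (adjusted p = 0.00045), and the Jurkat value of 0.86 on the log2 scale (SE 0.382) was not called (adjusted p = 0.2), nor was the Jurkat rise against scrambled cells when either scrambled library was left out. Exons of ITGB7 share 42.3% of their bases with ZNF740 on the other strand. ZNF740 was at 54.1 to 72 CPM in the group means, with log2 fold changes of -0.03 (SE 0.0592) in Jurkat and -0.33 (SE 0.0645, adjusted p = 0.0039) in HSB-2, and its part in the ITGB7 counts was not tested.

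ITGAL (ENSG00000005844.13, chr16:30483979-30534888, plus strand) encodes the alpha chain of LFA-1, the integrin that binds ICAM1. In Jurkat it was at 346 and 354 CPM in wild-type libraries, 326 and 328 in scrambled, 389 and 373 with shRNA-4057 and 255 and 264 with shRNA-4058. The HSB-2 groups were at 1298 and 1290.0, 1381 and 1430.0, 1405 and 1367, and 1492 and 1546 CPM. The Jurkat hairpins lay on opposite sides of the scrambled libraries, and in HSB-2 the shRNA-4057 libraries overlapped them. The pooled log2 fold change was -0.003 in Jurkat (SE 0.177, adjusted p = 0.99) and 0.05 in HSB-2 (SE 0.0596, adjusted p = 0.53). Against the same scrambled cells in Jurkat, ITGAL was 1.17-fold higher with shRNA-4057 (adjusted p = 2.7e-06) and 1.26-fold lower with shRNA-4058 (adjusted p = 8.3e-09).

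Promoter sequence is shown for the 4 members that were called in both lines and have a single RefSeq promoter entry, since KLF2 and the E proteins studied in T-ALL both act on DNA motifs that can be searched. The 250 bases before each RefSeq start were matched exactly to GRCh37 and are printed 5′ to 3′ on the strand of the gene. Capitals mark CACCC or its complement GGGTG, the core that Krüppel-like factors bind, and the E-box CANNTG. The motifs were sought on both strands and share no base in these windows.
S1PR1: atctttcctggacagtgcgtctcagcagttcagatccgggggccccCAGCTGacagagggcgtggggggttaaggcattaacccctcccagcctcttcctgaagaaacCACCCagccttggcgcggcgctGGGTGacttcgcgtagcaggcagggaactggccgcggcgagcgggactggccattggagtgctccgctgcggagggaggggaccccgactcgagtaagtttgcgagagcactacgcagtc
KLF2: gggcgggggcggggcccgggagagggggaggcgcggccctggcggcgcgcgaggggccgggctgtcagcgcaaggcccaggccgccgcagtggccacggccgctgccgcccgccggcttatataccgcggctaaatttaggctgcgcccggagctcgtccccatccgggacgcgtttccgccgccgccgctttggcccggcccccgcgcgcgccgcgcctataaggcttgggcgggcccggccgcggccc
ITGA4: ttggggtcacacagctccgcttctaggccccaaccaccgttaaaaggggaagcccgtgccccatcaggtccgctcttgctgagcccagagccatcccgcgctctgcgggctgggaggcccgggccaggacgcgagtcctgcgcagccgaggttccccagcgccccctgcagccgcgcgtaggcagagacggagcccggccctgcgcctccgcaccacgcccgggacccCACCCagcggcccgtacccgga
ITGB7: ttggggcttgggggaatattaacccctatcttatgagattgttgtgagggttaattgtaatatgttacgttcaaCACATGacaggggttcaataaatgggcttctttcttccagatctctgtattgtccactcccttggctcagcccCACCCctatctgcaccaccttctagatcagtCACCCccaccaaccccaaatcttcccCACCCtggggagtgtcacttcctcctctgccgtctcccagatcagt

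These windows are chr1:101702325-101702574 (plus) for S1PR1, chr19:16435387-16435636 (plus) for KLF2, chr2:182321863-182322112 (plus) for ITGA4 and chr12:53601036-53601285 (minus) for ITGB7. The windows of S1PR1, ITGA4 and ITGB7 reach past the start of the gene in the gene models used for coordinates, because the RefSeq start lies downstream of it. The S1PR1 window holds 2 CACCC matches and 1 E-box, the ITGB7 window 3 and 1, the ITGA4 window 1 and 0, and the KLF2 window neither motif. Among 35116 RefSeq promoter windows of the same length, 54.7% hold at least 1 CACCC match, 23.1% at least 2, 8.6% at least 3, and 61.8% an E-box. The KLF2 window is 80.0% G or C with 41 CpG dinucleotides and the ITGB7 window 49.6% with 2, and both genes rose in both lines. CXCR4 has 3 RefSeq entries with 2, 2 and 3 CACCC matches, and CCR7 and ITGAL were not among the matched promoters.

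Each hairpin was next compared with the scrambled cells of its line in 1 fit of the 8 groups over all 16 libraries, in which only replicates set the error. In Jurkat all 9 genes were called with shRNA-4057, 6 higher and 3 lower, where 50% of 23063 genes were called, 22.7% higher and 27.3% lower. With shRNA-4058 8 were called, 4 higher and 4 lower, where 46.5% were, 19.7% higher and 26.7% lower. In HSB-2 7 were called with shRNA-4057, 5 higher and 2 lower, where 43.6% of all genes were, 21.9% higher and 21.7% lower. There 8 were called with shRNA-4058, 6 higher and 2 lower, where 52.8% were, 26.6% higher and 26.2% lower. IL7R entered this fit through its Jurkat counts and had too few counts in HSB-2 to be called there with either hairpin. The hairpins of a line share the same scrambled libraries, so their values are given side by side and not as 2 separate tests of direction. For CCR7 in Jurkat these were log2 fold changes of 1.16 (SE 0.071) with shRNA-4057 and 1.12 (SE 0.0703) with shRNA-4058. For KLF2 in Jurkat they were 2.18 (SE 0.075) and 2.03 (SE 0.0748). In HSB-2 ITGB7 had 2.65 (SE 0.048) and 2.87 (SE 0.0481), and S1PR1 1.44 (SE 0.0525) and 1.39 (SE 0.0522).

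Set against each other, the 2 hairpins differed in 7 of the 9 genes in Jurkat, 4 higher and 3 lower with shRNA-4057, where 33.9% of all genes differed, 17.7% higher and 16.2% lower. In HSB-2 they differed in 4 of 9, 1 higher and 3 lower, where 24.8% of all genes differed, 10.5% higher and 14.3% lower. IL7R is among these 9 but had too few counts in HSB-2 to be called between the hairpins. In Jurkat S1PR1 was 1.45-fold higher with shRNA-4057 than with shRNA-4058 (log2 difference 0.53, SE 0.0468, adjusted p = 3.4e-09), ITGB7 2.26-fold higher (adjusted p = 1.4e-14) and ITGAL 1.47-fold higher (adjusted p = 3.1e-12). IL7R was 2.07-fold lower with shRNA-4057 (adjusted p = 2.3e-06), ITGA4 1.44-fold lower (adjusted p = 1.3e-09) and CXCR4 1.13-fold lower (adjusted p = 0.00019). For S1PR1, ITGB7, IL7R, ITGA4 and CXCR4 the hairpin farther from scrambled cells was thus shRNA-4057, the one with the lower USP7 level in Jurkat, and with 2 hairpins a relation to that level was not tested. The remaining call was CCR9, with 18 and 17 counts against 2 and 8 (adjusted p = 0.047), and it was lost without either shRNA-4057 library or without shRNA-4058 replicate 1. CCR7 and KLF2 did not pass the test between the Jurkat hairpins, with log2 differences of 0.03 (SE 0.061, adjusted p = 0.75) and 0.16 (SE 0.0678, adjusted p = 0.076). In HSB-2, where the USP7 levels of the hairpins lay closer together, KLF2 was 1.65-fold higher with shRNA-4057 (adjusted p = 2.1e-07). There ITGA4, ITGB7 and ITGAL were 1.16-fold, 1.17-fold and 1.10-fold lower with shRNA-4057, and the other members were not called.

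**Figure D2:**
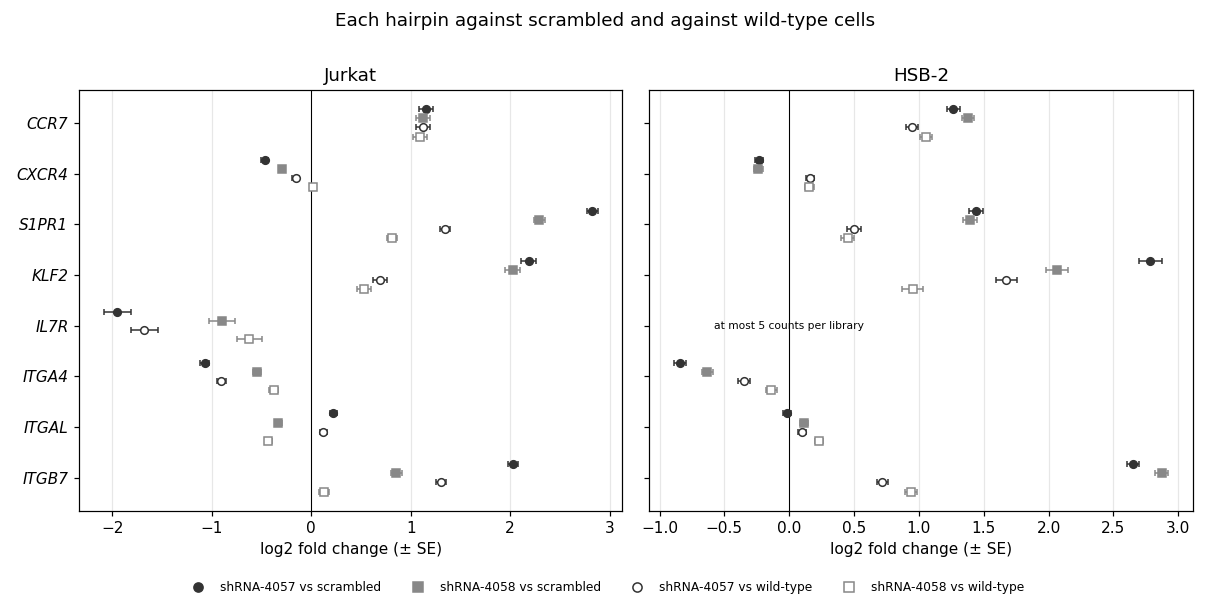
Log2 fold change with its SE for 8 of the 9 genes, for each hairpin against scrambled cells (filled) and against wild-type cells (open), with Jurkat on the left and HSB-2 on the right, on axes of different range; CCR9 is left out because of its few counts. The open and filled points of CCR7 in Jurkat nearly coincide, those of S1PR1, KLF2 and ITGB7 lie apart on the same side of 0, and those of CXCR4 in HSB-2 lie on opposite sides of 0.

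The scrambled cells themselves differed from wild-type cells. In Jurkat 7 of the 9 genes were called between them, 2 higher and 5 lower in scrambled cells, where 25.9% of all genes were called, 14.8% higher and 11% lower. In HSB-2 all 9 were, 3 higher and 6 lower, where 34.1% were, 16.1% higher and 17.9% lower. S1PR1 was 2.79-fold lower in scrambled than in wild-type Jurkat cells (adjusted p = 1.1e-15) and 1.92-fold lower in HSB-2 (adjusted p = 9.7e-13). KLF2 was 2.81-fold (adjusted p = 6e-13) and 2.16-fold lower (adjusted p = 7.4e-10), and ITGB7 1.65-fold (adjusted p = 1.4e-09) and 3.82-fold lower (adjusted p = 3.6e-19). CXCR4 was 1.24-fold (adjusted p = 1.3e-07) and 1.31-fold higher (adjusted p = 1.6e-09), and ITGA4 1.12-fold (adjusted p = 0.0056) and 1.41-fold higher (adjusted p = 3.7e-09). The Jurkat call of ITGA4 was lost without wild-type replicate 2 or scrambled replicate 1. By DESeq2's Wald test 6 members were called in Jurkat, where 26.3% of all genes were. CCR7 did not pass the test in Jurkat (log2 fold change -0.03, SE 0.0799, adjusted p = 0.83) and was 1.25-fold lower in HSB-2 (adjusted p = 8.2e-06). The HSB-2 call of IL7R rests on 5 counts in 1 wild-type library against 0. Some labels call the scrambled control an siRNA, whereas the design text of the submitters calls it an shRNA. The comparisons of scrambled with wild-type cells share the scrambled libraries with those above, and an effect of the scrambled construct and of its delivery cannot be told apart.

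For that reason each hairpin was also set against wild-type cells, a comparison added after the data had been seen. With shRNA-4057 and shRNA-4058, the log2 fold change of S1PR1 was 1.35 (SE 0.0483) and 0.81 (SE 0.0481) in Jurkat and 0.50 (SE 0.051) and 0.45 (SE 0.0507) in HSB-2. That of KLF2 was 0.69 (SE 0.0691) and 0.53 (SE 0.069) in Jurkat and 1.67 (SE 0.0801) and 0.95 (SE 0.0814) in HSB-2. ITGA4 had -0.91 (SE 0.044) and -0.38 (SE 0.0435) in Jurkat and -0.35 (SE 0.0447) and -0.14 (SE 0.0444) in HSB-2. CCR7, S1PR1 and KLF2 were called higher and ITGA4 lower in all 4 of these comparisons, in which 36.7% and 35.9% of all genes were called in Jurkat and 31.7% and 44% in HSB-2. The hairpins of a line share the same wild-type libraries, so these are not 4 separate tests. The labels of wild-type cells name no construct, so loss of USP7 and delivery of a hairpin cannot be told apart here. ITGB7 was called in 3 of the 4 comparisons, its value with shRNA-4058 in Jurkat being 0.13 (SE 0.0524, adjusted p = 0.058). IL7R in Jurkat was called lower with each hairpin, by -1.68 (SE 0.135) and -0.62 (SE 0.126) on the log2 scale.

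Whether the response to the hairpins differed between the lines was tested by an interaction term in the 12 hairpin and scrambled libraries. Of the 9 genes 2 were called, 1 in each direction, where 37.7% of all genes were, 20.6% higher and 17.1% lower in HSB-2. The 9 include IL7R, next to absent in HSB-2, and CCR9, with few counts in both lines. The SE of their differences was 2.76 and 1.78, so a call of either was hardly possible. S1PR1 rose less in HSB-2 than in Jurkat (log2 fold change 1.42 against 2.61, difference -1.16, SE 0.201, adjusted p = 0.00067), and ITGB7 rose more (2.77 against 1.58, difference 1.21, SE 0.413, adjusted p = 0.034). With scrambled and wild-type cells together as the control neither was called (adjusted p = 0.18 for S1PR1 and 0.66 for ITGB7), and 0 of the 9 had an unadjusted p under 0.05 in edgeR or were called by DESeq2. Of all genes 35.3% were called by edgeR with that control. The ITGB7 difference was also not called with wild-type cells alone, where it was 0.02, with the GC and length offset, where it was 0.90, or when any 1 of the scrambled libraries of either line or of the HSB-2 shRNA-4058 libraries was left out (adjusted p between 0.056 and 0.1). For CCR7 the difference was 0.19 (SE 0.0979, adjusted p = 0.15), for KLF2 0.37 (SE 0.274, adjusted p = 0.32), for CXCR4 0.15 (SE 0.0901, adjusted p = 0.22), for ITGA4 0.05 (SE 0.208, adjusted p = 0.87) and for ITGAL 0.08 (SE 0.201, adjusted p = 0.79), none of which passed the test. Over all genes, 54.7% of the calls were higher in HSB-2, and 42.9% with the GC and length offset, which moved the median of all genes from -0.01 to -0.11.

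Wild-type cells of the 2 lines stood far apart in these genes. Of the 9, 5 were higher in Jurkat and 3 in HSB-2, where 68.1% of all genes were called, 34.6% higher in Jurkat and 33.5% lower. CCR7 was 14.9-fold lower in Jurkat than in HSB-2 (log2 fold change -3.90, SE 0.0616, adjusted p = 9e-25), ITGB7 4.65-fold lower (adjusted p = 8.9e-22) and ITGAL 3.70-fold lower (adjusted p = 5.3e-24). KLF2 was 6.02-fold higher in Jurkat (log2 fold change 2.59, SE 0.0785, adjusted p = 3.6e-19), ITGA4 3.51-fold (adjusted p = 6.8e-21), CXCR4 2.68-fold (adjusted p = 2.7e-21) and S1PR1 2.09-fold higher (adjusted p = 2.4e-15). IL7R, the fifth gene higher in Jurkat, had 966 and 683 counts in its wild-type libraries against 5 and 0 in those of HSB-2. Per kilobase of exon, the order in Jurkat wild-type cells ran from CXCR4 at 98.9 CPM through ITGA4 at 45.6, ITGAL at 35.5, KLF2 at 12.6, S1PR1 at 7.58, ITGB7 at 2.73, CCR7 at 1.36 and IL7R at 1.32 to CCR9 at 0.0233. In HSB-2 it began with ITGAL at 131, CXCR4 at 37 and CCR7 at 20.4 CPM per kilobase, followed by ITGA4 at 13.0 and ITGB7 at 12.7. Each line is a single line, so line and culture cannot be told apart.

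**Figure D3:**
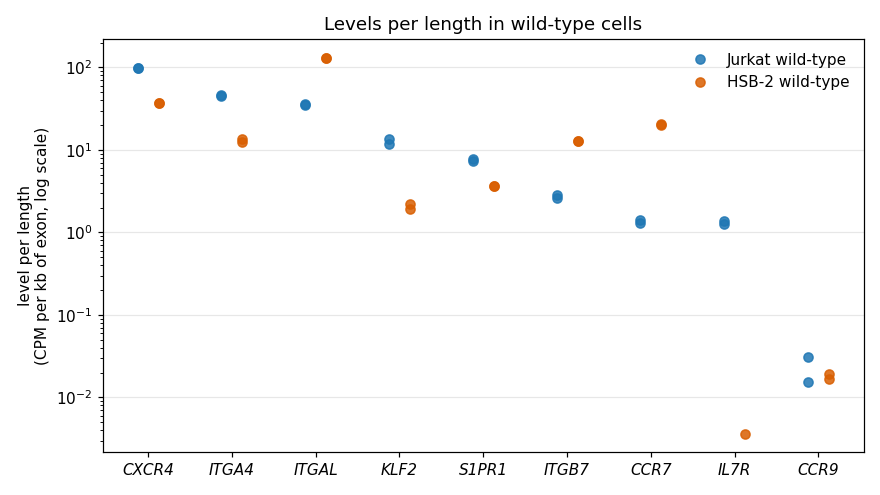
Level per kilobase of exon in the 2 wild-type libraries of each line, in CPM per kilobase on a log axis, with genes ordered by their Jurkat level. ITGAL, ITGB7 and CCR7 lie higher in HSB-2, CXCR4, ITGA4, KLF2, S1PR1 and IL7R lie higher in Jurkat, and the HSB-2 library with 0 counts of IL7R cannot be drawn.

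Across the 8 groups the order of levels separated the genes into those ranked mainly by line and those ranked by both line and treatment. All 4 HSB-2 groups exceeded all 4 Jurkat groups in CCR7 and ITGAL, and all 4 Jurkat groups exceeded all 4 HSB-2 groups in CXCR4, ITGA4 and IL7R. In S1PR1 and KLF2 the lines interleaved: scrambled Jurkat cells, at 14.2 ± 0.446 CPM of S1PR1 (SD, n = 2), fell below HSB-2 wild-type cells at 18.9 ± 0.015. For KLF2 scrambled Jurkat cells, at 12.6 ± 0.0822 CPM, fell below HSB-2 cells with shRNA-4057 at 18.9 ± 1.21. In ITGB7 scrambled HSB-2 cells, at 14.8 CPM, fell below Jurkat cells with shRNA-4057 at 30 CPM. Libraries of neighbouring groups overlapped for CCR7 between the Jurkat hairpins and between Jurkat wild-type and scrambled cells, for CXCR4 between Jurkat wild-type and shRNA-4058 cells and between the HSB-2 hairpins, and for ITGAL between HSB-2 scrambled and shRNA-4057 cells. They overlapped also among the HSB-2 groups of IL7R and between several groups of CCR9, where counts were few. No neighbours overlapped in S1PR1, KLF2, ITGA4 or ITGB7.

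As a description of shared pattern, each gene with at least 1 CPM on average in both lines was compared with 11894 other such genes by Pearson's r of log2 CPM over the 16 libraries, after centring on the mean of its line. The libraries of a group share their culture and treatment, so these are no independent points. The genes most like CCR7 were KRT1 (r = 0.972), TRAM2 (0.971) and BAIAP2-DT (0.969), and those most like S1PR1 were PLEKHG3 (0.992), SH3BP5 (0.991) and KRT73 (0.981). KLF2 was most like SYNJ2 (0.976), FBXO21 (0.952) and RPRD2 (0.95), and ITGB7 most like CDC42SE1 (0.985), MARK2 (0.985) and SLA2 (0.984). The nearest to CXCR4 were PDK1 (0.96), CA8 (0.953) and RAB3A (0.952), to ITGA4 USP44 (0.983), INSR (0.98) and NFE2 (0.969), and to ITGAL GIMAP1 (0.948), LINC02361 (0.942) and PTK7 (0.933). Among the members, S1PR1 and KLF2 had r = 0.897, ITGB7 and KLF2 0.882, and CCR7 and KLF2 0.867. ITGA4 ran against them, with r = -0.907 to S1PR1 and -0.892 to its partner chain ITGB7. ITGAL had r between -0.198 and 0.284 with the other members.

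Other genes of the same pathways were taken from 7 lists that do not hold the members. The lists are described by their counts, beside the 12.4% of all genes called higher and 15.7% called lower in Jurkat and the 20.3% and 17.8% in HSB-2. Among the other chemokine receptors 13 of 20 were tested in each line. In Jurkat 6 were called higher and 1 lower, with a median log2 fold change of 0.99 where that of all genes was 0.02. In HSB-2 10 were called higher and none lower, with a median of 1.54 where that of all genes was -0.02. CCR2 rose in Jurkat from 0.272 CPM in scrambled cells to 2.48 with shRNA-4057 and 0.74 with shRNA-4058, and CCR1 in HSB-2 from 0.0803 to 0.831 and 2.52 CPM. Wild-type cells stood at 0.325 CPM of CCR2 in Jurkat and 0.486 of CCR1 in HSB-2. CCR8 fell in Jurkat from 12.4 to 2.87 and 5.6 CPM (adjusted p = 0.011), with wild-type cells at 8.4. In HSB-2 CCR8 was at 63.9 CPM in scrambled cells, 59.8 in wild-type cells and 88.5 and 84.7 with the hairpins. Against wild-type cells 5 of the 13 were called, all higher, in HSB-2. In Jurkat 0 were called by edgeR, 5 having an unadjusted p under 0.05, and 3 were called by DESeq2. Of 6 chemokine ligands tested, CCL20 alone was called in Jurkat, falling from 0.15 CPM to 0.00925 and 0.0248, with wild-type cells at 0.0197. In HSB-2 5 were called higher, among them XCL2 and CXCL12, each under 0.5 CPM. There wild-type cells stood at 0.339 CPM of XCL2, above both hairpins at 0.269 and 0.135, and at 0.115 of CXCL12.

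Lysophospholipid receptors and egress regulators gave 3 genes called higher and 6 lower of 21 tested in Jurkat, and 11 higher and 0 lower of 19 in HSB-2. Their median log2 fold changes were -0.11 in Jurkat and 0.22 in HSB-2, where those of all genes were 0.02 and -0.02. CD69, which binds S1PR1 and takes it off the cell surface, fell in Jurkat from 54.6 CPM in scrambled cells to 20.3 and 19.9 (log2 fold change -1.42, SE 0.0796, adjusted p = 9.9e-05). In HSB-2 CD69 rose from 26 CPM to 113 and 136 (log2 fold change 2.26, SE 0.106, adjusted p = 1.6e-06). Its wild-type cells stood at 26.4 CPM in Jurkat and 97.5 in HSB-2. S1PR4 rose in Jurkat from 0.59 to 1.71 and 1.51 CPM, LPAR6 from 1.5 to 20.6 and 5.18, and P2RY8, a receptor that confines B cells to follicles, fell from 448 to 194 and 254. Wild-type Jurkat cells stood at 1.22 CPM of S1PR4, at 5.18 of LPAR6, the level with shRNA-4058, and at 339 of P2RY8. GPR183, the oxysterol receptor EBI2, rose in HSB-2 from 0.0889 to 1.15 and 1.05 CPM, with wild-type cells at 0.443.

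**Figure D4:**
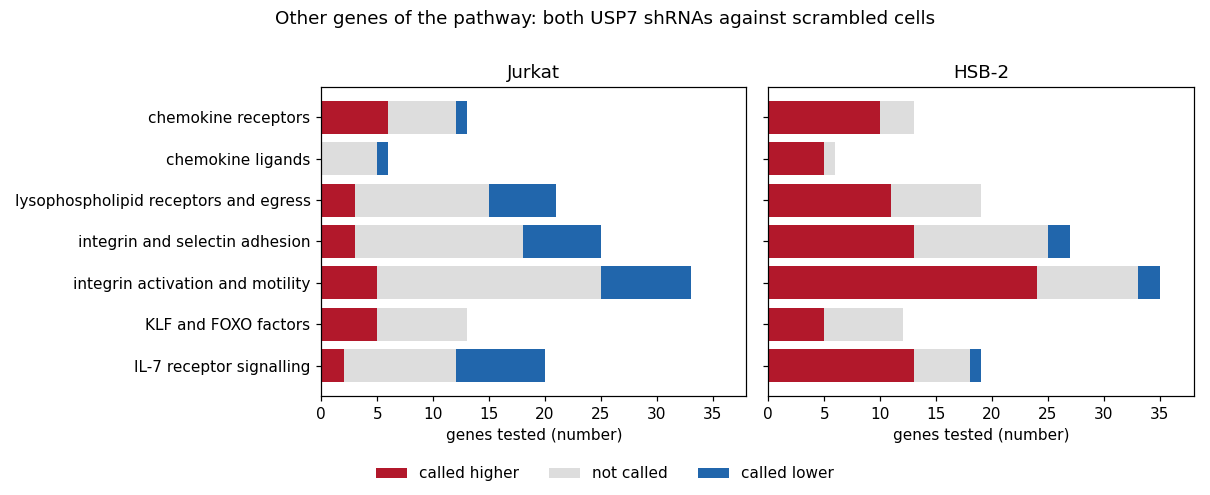
Number of genes of each pathway list that were called higher, not called or called lower with both hairpins against scrambled cells, in Jurkat (left) and HSB-2 (right). Bars start at 0 and end at the number of genes tested. Chemokine receptors had 6 higher and 1 lower of 13 in Jurkat and 10 higher of 13 in HSB-2, and IL-7 receptor signalling 2 higher and 8 lower of 20 against 13 higher and 1 lower of 19.

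Among other integrins, selectins and adhesion receptors, 3 were called higher and 7 lower of 25 in Jurkat, and 13 higher and 2 lower of 27 in HSB-2, with medians of -0.13 and 0.34 where those of all genes were 0.02 and -0.02. CD99 fell in Jurkat from 646 to 212 and 264 CPM (adjusted p = 0.00025) and JAM3, a junctional adhesion molecule, from 438 to 176 and 225 (adjusted p = 0.00089), while ITGA6, the alpha6 integrin chain, rose from 19.6 to 34 and 28.9 CPM. Wild-type Jurkat cells stood at 442 CPM of CD99, 267 of JAM3 and 31.5 of ITGA6, the last between the hairpins. CD44, the hyaluronan receptor, was called higher in Jurkat at no more than 0.582 CPM in any group. In HSB-2 ITGA1 rose from 0.195 to 2.17 and 2.32 CPM and ITGAX from 0.0609 to 0.48 and 1.31, with wild-type cells at 0.753 and 0.448.

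Proteins that activate integrins or drive motility gave 5 higher and 8 lower of 33 in Jurkat and 24 higher and 2 lower of 35 in HSB-2, where 28% and 38.1% of all genes were called. The list medians were 0.02 in Jurkat, as over all genes, and 0.32 in HSB-2. PXN (paxillin) and VCL (vinculin), which link integrins to actin, rose in Jurkat from 33 to 112 and 64.1 CPM and from 25.9 to 59.5 and 45.9. Wild-type Jurkat cells stood at 52.9 CPM of PXN and 37 of VCL. There the adaptors FYB1 and APBB1IP fell by 0.69 and 0.51 on the log2 scale (SE 0.107 and 0.066), APBB1IP from 169 to 122 and 112 CPM. In HSB-2 the adaptor SKAP1 rose from 0.952 to 12.5 and 12.4 CPM (adjusted p = 1.6e-07), with wild-type cells at 7.73. RGS1, which dampens chemokine signals, rose there from 0.185 to 2.3 and 2.87, with wild-type cells at 1.12. RGS16 fell from 62.3 to 44.4 and 37.9 CPM, with wild-type cells at 29.8, and RASGRP2, an activator of RAP1, from 78.6 to 63.5 and 71.

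The other KLF and FOXO family factors had 5 genes called higher and 0 lower in each line, of 13 tested in Jurkat and 12 in HSB-2, with medians of 0.16 and 0.20 where those of all genes were 0.02 and -0.02. Of all genes, 28% and 38.1% were called in either direction, and 12.4% and 20.3% were called higher. Whether the list differs from these shares was not tested. FOXO1, an activator of KLF2, IL7R and CCR7 in naive T cells, rose in Jurkat from 6.8 CPM in scrambled cells to 25.3 and 15.1 (log2 fold change 1.60, SE 0.261, adjusted p = 0.0045), with wild-type cells at 12.5. FOXP1, which the list also holds although it is neither a KLF nor a FOXO factor, rose there from 51.6 to 76.9 and 61.4. Its wild-type level was 67.4, between the hairpins. In HSB-2 FOXO3 rose from 92.5 to 127 and 140 CPM (adjusted p = 3e-04) and FOXO4 from 14.5 to 20 and 22. There wild-type cells stood at 98.5 CPM of FOXO3 and 18.5 of FOXO4.

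Genes of IL-7 receptor signalling gave 2 higher and 8 lower of 20 in Jurkat and 13 higher and 1 lower of 19 in HSB-2. The medians were -0.04 and 0.40 where those of all genes were 0.02 and -0.02. In Jurkat STAT5A, which carries the signal to the nucleus, fell from 107 to 31.6 and 37.1 CPM (log2 fold change -1.62, SE 0.0918, adjusted p = 1e-04), with wild-type cells at 56.4. In HSB-2 STAT5A was at 261 CPM in scrambled cells, 331 in wild-type cells and 424 and 478 with the hairpins. TSLP fell in Jurkat from 8.42 to 5.16 and 3.82, while SOCS3, an inhibitor of cytokine signalling, rose from 3.75 to 8.24 and 5.66. JAK3, the kinase of the common gamma chain, rose in both lines, from 38.1 to 65.6 and 49.3 CPM in Jurkat (adjusted p = 0.018) and from 119 to 335 and 341 in HSB-2 (adjusted p = 4.2e-07), where wild-type cells stood at 264. In HSB-2 the kinase gene PIM2 rose from 27.1 to 48.2 and 60.3 CPM, and PTPN2, a phosphatase of JAK kinases, fell from 42.1 to 36.2 and 31.3.

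The choice of control weighed on these lists as on the members. Against wild-type cells the Jurkat calls by edgeR numbered 0 higher and 2 lower of 21 for egress genes and 1 and 3 of 25 for adhesion. They numbered 2 and 4 of 33 for activation and motility, 2 and 0 of 13 for KLF and FOXO factors and 0 and 4 of 20 for IL-7 signalling. Of all genes 3.1% were called higher and 5.31% lower in that comparison. In HSB-2 the list calls numbered 7 and 2 of 19, 9 and 2 of 27, 14 and 4 of 35, 4 and 0 of 12, and 10 and 1 of 19 in the same order. There 13.3% of all genes were called higher and 11.8% lower. Whether a list differs from these shares was not tested.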

How the data were processed

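The deposited values were raw read counts per gene, neither normalized nor pooled, in 1 table of 16 libraries with every column used (0 left aside). Per the methods, the authors prepared stranded libraries from total RNA depleted of ribosomal RNA, mapped read pairs by BWA to GRCh37-lite and to transcript collections, and kept the best hit. Counting was by HTSeq, version 0.6.1p1 in the submitters' processing notes, which also list CASAVA, STAR and hg19. The strand setting and annotation release of the counting were not given in the sources used here, so reads of genes that overlap on opposite strands may not have been kept apart.

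The table held Ensembl identifiers. Symbols, coordinates, exon length and GC content came from GENCODE mapped to GRCh37, and 55538 of 57820 identifiers (96.1%) had a symbol. Promoter sequences were those of RefSeq.

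The analysis used edgeR 4.0.16 (R 4.3.3): filterByExpr, TMM scaling (factors 0.882 to 1.15) and the quasi-likelihood F-test, with p-values adjusted by Benjamini-Hochberg and calls at adjusted p under 0.05. The pooled comparison of a line used its 6 hairpin and scrambled libraries, the difference between lines 12, and all other comparisons the 16. The SE was the absolute log2 fold change over the square root of F. Levels are TMM-scaled CPM. The procedures were tested on simulated counts. A library at 0 allows up to 3 counts; such limits and the 95% exact intervals of count ratios cover counting error only, since the reads carry no molecular identifiers.

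All members are named. Of each list the up to 2 genes of each line with the highest and lowest fold change were named among those called in the pooled comparison and, in the same direction, with each hairpin, and for likeness the 3 genes of highest r. One or more named genes are not reported here. Members and lists were chosen with earlier results of these data known. Replicates differed by more than sampling noise. Alternatives were DESeq2 1.42.0 and its size factors, no filter, a replicate block, other controls, hairpins as separate groups, an offset for GC content and length, and each library left out.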

Additional observations from a re-analysis of the deposited data

Results flagged for a closer look

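In the 4 HSB-2 USP7 shRNA libraries, IL7R was at 0.004809 CPM in 1 library, which is 1 count, and at 0 in the other 3. It met Dixon's criterion, as any single count does when the other 3 libraries are at 0. The library with the count was the deepest of the 4, with 231.3 M counts against 76.6 to 112.1 M, and nothing is read from it.

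The response of S1PR1 to the hairpins differed between the lines in the test of the difference itself: the HSB-2 log2 fold change minus that of Jurkat was -1.161 (SE 0.201, adjusted p = 0.00067 in edgeR's quasi-likelihood test), with a rise in both lines. That difference was lost in 1 of 20 other settings, with scrambled and wild-type cells together as the control (adjusted p = 0.18 in the same test). For ITGB7 the same difference was 1.214 (SE 0.413, adjusted p = 0.034), again with a rise in both lines, and it was lost in 9 of 20 other settings.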

How the results depend on the processing

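Single-gene values under other settings kept their direction and their side of the threshold in 452 cases, were no longer called in 13, became called in 6 and changed sign in 18. With 1 library left out these numbers were 415, 23, 2 and 12. The cause was not tested in any case. With wild-type cells as control, 3 members and 1798 genes in all were called in Jurkat, 5010 genes in HSB-2, and 1 member and 4338 genes for the difference between lines. Values that changed sign there were CCR9 in Jurkat (-0.02438), CXCR4 in HSB-2 (0.1529 pooled, 0.1608 with shRNA-4057 and 0.1545 with shRNA-4058), CXCR4 with shRNA-4058 in Jurkat (0.01715), ITGAL with shRNA-4057 in HSB-2 (0.09879) and the line difference of CCR7 (-0.1007). With both controls together, 0 members were called for the line difference by edgeR, where 35.3% of all genes were. There 0 had an unadjusted p under 0.05 in edgeR, and 0 were called by DESeq2. With the hairpins entered separately and averaged, 11506 genes were called in Jurkat, 12128 in HSB-2, and 6 members for the line difference. With the GC and length offset, 1 member was called for the line difference, where 38.5% of all genes were. Signs changed with that offset for ITGAL in Jurkat (0.02391) and HSB-2 (-0.06476) and for the line differences of CCR7 (-0.1814), CXCR4 (-0.1274), KLF2 (-0.001665) and ITGAL (-0.06523). Without the filter ITGAL in Jurkat was 0.01824. With DESeq2's size factors or its Wald test, ITGAL with shRNA-4057 in HSB-2 was 0.01668 or 0.01667 and CXCR4 between the HSB-2 hairpins -0.01823 in both.

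With 1 library left out, members called ranged from 3 to 7 and all genes from 1434 to 5792 in Jurkat (the lowest without a scrambled library), all genes from 3801 to 8454 in HSB-2 (lowest without scrambled replicate 1), members from 1 to 2 for the line difference, and members from 4 to 6 for Jurkat scrambled against wild-type cells (4 without scrambled replicate 1). All genes called between the HSB-2 hairpins ranged from 3713 (without shRNA-4057 replicate 2) to 4478. Gene values that changed sign ranged from -0.09909 to 0.09039 for ITGAL in Jurkat, -0.04725 to 0.003865 for ITGAL with shRNA-4057 in HSB-2, -0.0946 to 0.04456 for CCR7 in Jurkat scrambled against wild-type cells, -0.03192 to 0.09715 for CCR7 between the Jurkat hairpins, -0.04609 to 0.1621 and -0.01526 to 0.185 for the line differences of ITGA4 and ITGAL, and -0.05231 to 0.02038 for CXCR4 between the HSB-2 hairpins.

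Same-numbered libraries of a line did not all deviate in the same direction (r from -0.309 to 0.232 over 12 pairs of groups, above 0.1 in 5). The numbers were therefore not taken to pair the samples. In Jurkat shRNA-4057 had r of -0.204, -0.176 and -0.309 to wild-type, scrambled and shRNA-4058 cells, which had positive r among themselves. A batch shared under other numbers was not tested. With a replicate block by these numbers, 7 members were called in each line, where 19.5% of all genes were in Jurkat and 31.7% in HSB-2. For the line difference 2 members were called, where 35.1% of all genes were. All genes called numbered 4156 in Jurkat and 6691 in HSB-2, against 5965 and 8049 without the block. Between the Jurkat hairpins 6 members were called, and 6 between Jurkat scrambled and wild-type cells (7 and 7 without the block). Of all genes 33.6% and 25.6% were called in these comparisons with the block. Precision was limited by depth for CCR9 and for IL7R in HSB-2.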
